A study of Mus musculus with 77 samples.

Results

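Expression of 10 genes of arginine and nitric oxide metabolism was followed through the RNA libraries of newborn mouse lungs and cultured macrophages exposed to excess oxygen. The genes (Arg1, Arg2, Nos2, Nos3, Ass1, Asl, Ddah1, Ddah2, Slc7a2 and Odc1) are 10 of 24940 listed. They were taken by symbol, in part because Arg2 had been seen to be high in oxygen-exposed lungs of the C57BL/6J strain. That contrast is therefore described without a test, and no test of Arg2 is reported wherever those B6 lungs enter a comparison. The other genes were tested against the same B6 libraries, and all 10 in KO, DBA and set 2 lungs. Lungs were taken on postnatal day 14 from C57BL/6J mice (B6), from Trem2 knockout mice (KO, a line lacking a lipid-sensing receptor of macrophages) and from the inbred strain DBA/2J (DBA). Pups had either been kept in room air or placed in 75% oxygen (hyperoxia) within a day of birth and left there until collection. There were 4 room-air and 3 hyperoxic libraries of B6 lung, 4 and 4 of KO lung, 4 and 4 of DBA lung, and 2 and 3 of a second set of B6 lungs with the same age and oxygen level (set 2). Bone marrow derived macrophages (BMDM) of the 3 genotypes were held in room air or hyperoxia for 24 h, with 2 libraries in each of the 6 groups. The column names mark 1 library of each B6 group as MF and the other as F, and all KO and DBA macrophage libraries as MF. The labels do not say whether libraries of a group came from separate animals or cultures, so p-values measure the spread between these libraries, which may be technical.

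Arginine has competing fates. Arginases split it into urea and ornithine, from which ornithine decarboxylase opens the path to polyamines, and nitric oxide synthases turn it into nitric oxide and citrulline, which 2 further enzymes recycle to arginine. Methylated arginines block the synthases and are removed by dimethylarginine hydrolases, and cationic amino acid transporters bring arginine into the cell. In the lung, nitric oxide from endothelium relaxes vessels, and in macrophages the balance between arginase and inducible nitric oxide synthase is a classical mark of activation state.

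The promoters of 3 of the genes are shown because all 3 rose in hyperoxic KO and DBA lungs, as given below. RefSeq promoter sequences (build GRCm38.p6, which has mm10 coordinates) matched 4 of the 10 genes, and the 250 bases upstream of the start are given on the gene's strand, with capitals marking the matches to the motifs searched. Ass1 lies at chr2:31470020-31470269, Odc1 at chr12:17544623-17544872 and Ddah1 at chr3:145758442-145758691, all on the plus strand.
Ass1: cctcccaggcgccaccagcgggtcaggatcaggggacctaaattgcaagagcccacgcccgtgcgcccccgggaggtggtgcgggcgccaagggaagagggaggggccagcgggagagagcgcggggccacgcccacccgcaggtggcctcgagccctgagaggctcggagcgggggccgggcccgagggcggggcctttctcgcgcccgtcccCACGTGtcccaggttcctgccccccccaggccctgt
Odc1: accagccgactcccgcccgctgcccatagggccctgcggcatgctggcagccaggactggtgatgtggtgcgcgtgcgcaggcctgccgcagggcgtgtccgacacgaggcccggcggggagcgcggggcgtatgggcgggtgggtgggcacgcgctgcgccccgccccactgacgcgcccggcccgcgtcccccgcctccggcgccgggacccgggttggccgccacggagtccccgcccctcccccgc
Ddah1: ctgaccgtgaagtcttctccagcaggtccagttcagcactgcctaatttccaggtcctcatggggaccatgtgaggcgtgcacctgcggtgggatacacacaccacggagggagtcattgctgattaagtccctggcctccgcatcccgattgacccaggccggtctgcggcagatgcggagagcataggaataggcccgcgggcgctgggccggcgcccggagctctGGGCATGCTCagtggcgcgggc
The letters CACGTG (E-box), TGATGNAAN (ATF4 type), TGACNNNGC (antioxidant type), TATAAA and the p53 decamer were searched on both strands. Ass1 held CACGTG from 36 to 31 bases before its start, a motif present in 6.02% of 32851 promoters of this length. Ddah1 held a p53 decamer from 22 to 13 bases before its start, as did 7.13% of promoters. Odc1 and the other matched gene, Ddah2, held none of the 5 motifs, and the shares of promoters with the other 3 were 3.44%, 10.2% and 12.4%. A match describes letters only.

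Values are TPM, transcript abundances scaled by library total and by transcript length, so levels can be compared between genes. All 10 genes passed the filter on low values in the lung tables and 7 passed in BMDM. Estimated depths were 12500000 to 41100000 reads per library in the first lung tables, 7100000 to 8000000 in set 2 and 14600000 to 47000000 in BMDM. Trem2 followed the labels: it held 908 to 962 TPM in B6 and 235 to 252 TPM in KO cells, and in hyperoxic lungs 5.97 to 9.85 TPM in B6 and 1.96 to 2.67 TPM in KO, whereas the room-air lung ranges of 2.14 to 3.73 and 1.05 to 2.75 TPM overlapped. Surfactant and other epithelial markers were present in every lung group, and macrophage markers summed to 15786 to 24162 TPM in BMDM. In hyperoxia the macrophage sum was lower in KO lungs (2807 to 3547 TPM against 5039 to 6493 TPM), in the first B6 set (1843 to 2097 against 2640 to 5191 TPM) and in set 2 (2935 to 3666 against 5293 to 5867 TPM), whereas in DBA lungs it was 875 to 2189 TPM against 703 to 1122 TPM. In BMDM, Sftpc and Nkx2-1 were listed at 0 in all 6 groups. Date codes in the column names differ between groups: DBA lungs share none with the others and B6 BMDM share none with KO and DBA BMDM, so date and genotype cannot be told apart there. Hyperoxic B6 and hyperoxic KO lungs share none directly and are linked only through the room-air libraries. All DBA and KO lung libraries are marked male, while 2 of 4 room-air and 1 of 3 hyperoxic B6 libraries are marked female. In room-air DBA lungs, libraries 3 and 4 had epithelial marker sums of 98801 and 111876 TPM, against 41453 and 62089 TPM in libraries 2 and 1 and 51609 to 57868 TPM in hyperoxic DBA lungs.

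In hyperoxia, 5 of the 10 genes rose and none fell in KO lungs: Odc1, Ass1, Ddah1, Slc7a2 and Arg2, by 0.61 to 1.03 on the log2(TPM + 1) scale used for every test (limma across all genes, with a call at an adjusted p of 0.05). Of all genes tested there, 19.7% were called, 10.6% higher and 9.11% lower. In DBA lungs Odc1, Arg2, Ddah1 and Ass1 rose and Nos2 fell, against 31.0% of genes called, 18.6% higher and 12.4% lower. In set 2, Odc1 and Ass1 rose, against 4.94% of genes called, 3.13% higher and 1.81% lower. The median difference of the 10 genes was 0.41 in KO, 0.18 in DBA and 0.48 in set 2, beside 0.01, 0.05 and 0.01 for all genes tested. In the first B6 set, Arg2 and Ass1 were above and Nos2 and Ddah1 below every room-air library. There 17.3% of genes were apart upward and 26.4% apart downward, which is background to a contrast that was used in the choice. The share of all genes with groups apart was counted for this contrast alone.

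**Figure D1:**
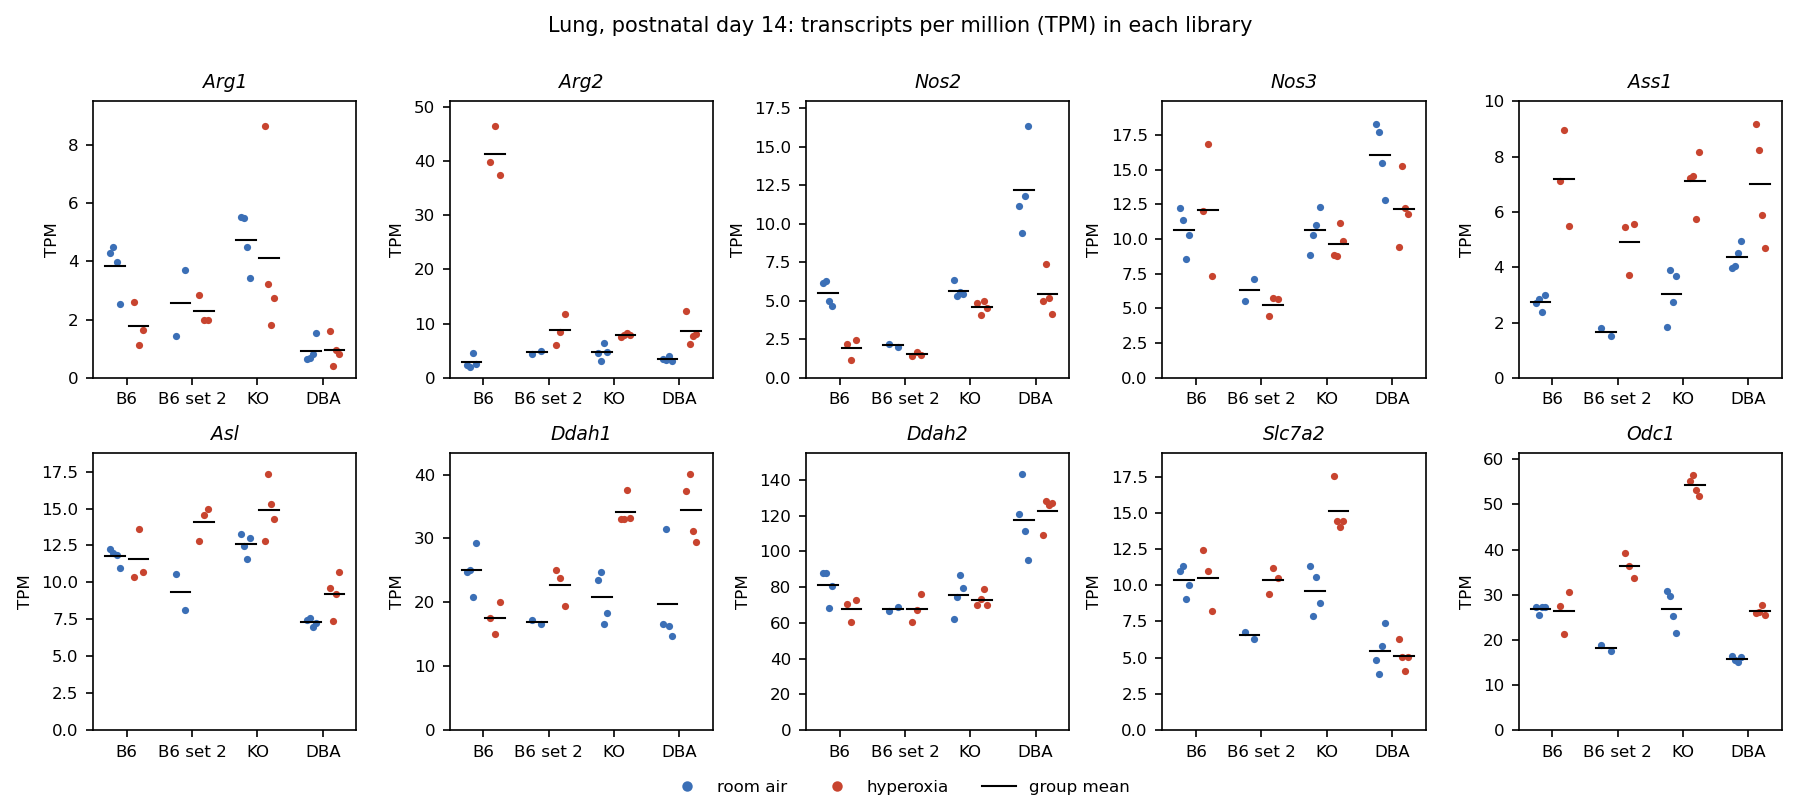
TPM of each gene (vertical axes) in every lung library, by genotype and set, with room air in blue, hyperoxia in red and bars at the group means. Arg2 stands at 37.5 to 46.5 TPM in hyperoxic B6 lungs of the first set and at 12.4 TPM or less in all other lungs, while Odc1 doubles in KO lungs and in set 2 and does not move in the first B6 set.

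Arg2 (chr12:79130788-79156301, plus strand, mm10) encodes the mitochondrial arginase. In B6 lungs of the first set it held 2.29, 2.08, 4.64 and 2.54 TPM in room air against 39.8, 46.5 and 37.5 TPM in hyperoxia, a ratio of means of 14.3 and a difference of 3.48 ± 0.20 on the log2(TPM + 1) scale. The groups were far apart, and the 2 room-air libraries with the date code of the hyperoxic ones were at 2.29 and 2.08 TPM, which gave a difference of 3.72 within that date code. In set 2 of the same strain, Arg2 held 4.44 and 4.94 TPM in room air against 6.05, 8.41 and 11.8 TPM in hyperoxia. These groups did not overlap either, but the ratio of means was 1.87 and the difference of 0.74 ± 0.24 (SE) was not called (adjusted p = 0.111).

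In KO lungs Arg2 held 4.53, 3.11, 6.35 and 4.77 TPM in room air against 7.47, 7.94, 8.34 and 7.86 TPM in hyperoxia. It rose by 0.68 ± 0.18 (adjusted p = 0.0172), and every hyperoxic library was above every room-air one. With the date code as a term the difference was 0.45 with an adjusted p of 0.110, within the shared date code alone it was 0.45 with an adjusted p of 0.0535, and without room-air library 2 the adjusted p was 0.0552. In DBA lungs Arg2 held 3.53, 3.23, 4.08 and 3.09 TPM in room air against 12.4, 6.16, 7.70 and 8.12 TPM in hyperoxia. It rose by 1.06 ± 0.20 (adjusted p = 0.00107), with the groups apart. Neutrophil markers summed to 72.7 to 118 TPM in room-air and 106 to 439 TPM in hyperoxic DBA lungs, and hyperoxic library 1 was highest in both these markers and Arg2. Their part in the rise was not tested. The 3 smaller differences left Arg2 in hyperoxia at means of 7.90 ± 0.36 TPM in KO (SD, n = 4), 8.60 ± 2.68 TPM in DBA (SD, n = 4) and 8.75 ± 2.89 TPM in set 2 (SD, n = 3), against 41.3 ± 4.67 TPM in the first B6 set (SD, n = 3).

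Arg1 (chr10:24915207-24927470, minus strand) encodes the cytosolic arginase of liver and of alternatively activated macrophages. It was low in all lungs, at 1.13 to 4.49 TPM in B6, 1.42 to 3.71 TPM in set 2, 1.82 to 8.64 TPM in KO and 0.409 to 1.59 TPM in DBA, on an estimated 7 to 181 reads. No tested oxygen contrast called it. The highest value was that of hyperoxic KO library 1, at 8.64 TPM beside 3.22, 1.82 and 2.73 TPM in its group. Without that library the KO difference moved from -0.31 to -0.68 with an adjusted p of 0.0479.

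Nos2 (chr11:78920787-78960226, plus strand) encodes the inducible nitric oxide synthase. In DBA lungs it held 11.1, 9.40, 11.8 and 16.4 TPM in room air against 4.99, 7.41, 5.15 and 4.16 TPM in hyperoxia. It fell by 1.03 ± 0.19 on the log2 scale (adjusted p = 0.00102), and the groups were apart. In the first B6 set it held 4.66 to 6.31 TPM in room air against 1.17 to 2.46 TPM in hyperoxia, without overlap. In KO lungs the ranges were 5.31 to 6.34 TPM and 4.07 to 4.99 TPM, a difference of -0.25 ± 0.14 that was not called (adjusted p = 0.229), and in set 2 they were 2.01 to 2.21 TPM and 1.42 to 1.66 TPM, a difference of -0.30 ± 0.21 (adjusted p = 0.457). The difference between the KO and DBA responses was 0.78 ± 0.23 (adjusted p = 0.0430), the only member called in that test, in which 7.24% of genes were called. The call is fragile: the date code as a term gave 0.82 with an adjusted p of 0.0765, a pseudocount of 0.1 gave an adjusted p of 0.0690, and leaving out any 1 of 13 of the 16 libraries also ended it, with adjusted p-values up to 0.0946.

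Nos3 (chr5:24364819-24384474, plus strand), the endothelial nitric oxide synthase, was not called in any tested oxygen contrast. Its differences were -0.12 ± 0.18 in KO, -0.38 ± 0.20 in DBA and -0.22 ± 0.18 in set 2. Hyperoxic B6 libraries of the first set spread widely, at 12.0, 16.8 and 7.35 TPM, around 8.58 to 12.2 TPM in room air. Vascular endothelial markers summed to 1724 to 1871 TPM in room air against 1300 to 1451 TPM in hyperoxia in the first B6 set, 1711 to 1955 and 1307 to 1592 TPM in KO, and 1085 to 1263 and 806 to 904 TPM in set 2. In DBA lungs they were 1244 to 1959 TPM in room air against 1285 to 1737 TPM in hyperoxia, with overlap. In whole lung, fewer cells of a type and less RNA per cell cannot be told apart.

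Ass1 (chr2:31470270-31520670, plus strand) encodes argininosuccinate synthase, the step that commits citrulline to recycling. In the first B6 set it held 2.70, 2.86, 2.38 and 2.99 TPM in room air against 7.11, 8.97 and 5.48 TPM in hyperoxia. In set 2 it held 1.79 and 1.50 TPM against 5.47, 3.72 and 5.55 TPM, and in KO lungs 1.84, 3.90, 2.74 and 3.69 TPM against 7.21, 7.30, 5.76 and 8.15 TPM. Every hyperoxic library was above every room-air library in these 3 sets. The rise was 1.03 ± 0.17 in KO (adjusted p = 0.000911) and 1.15 ± 0.21 in set 2 (adjusted p = 0.0206). The set 2 call was lost when any 1 of room-air libraries 1 and 2 or hyperoxic libraries 1 and 3 was left out, with adjusted p-values up to 0.140.

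In DBA lungs Ass1 held 3.96, 4.03, 4.52 and 4.95 TPM in room air against 9.16, 8.24, 5.90 and 4.71 TPM in hyperoxia. It rose by 0.54 ± 0.17 (adjusted p = 0.0266), but the groups overlapped, since hyperoxic library 4 lay below room-air library 4. The rise was 0.96 among the 4 libraries of the earlier date code and 0.13 among the 4 of the later one, and neither was called. Those fits called 124 of 15601 and 4023 of 15595 genes. Leaving out room-air library 1 or 2 or hyperoxic library 1 or 2 also ended the call (adjusted p up to 0.0874). Asl (chr5:130011258-130024381, minus strand) encodes argininosuccinate lyase, which completes the recycling of arginine. It was called in none of the 3 tested lung contrasts, with differences of 0.22 ± 0.10 in KO (adjusted p = 0.128), 0.29 ± 0.11 in DBA (adjusted p = 0.0576) and 0.55 ± 0.16 in set 2 (adjusted p = 0.0793).

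Odc1 (chr12:17544873-17551502, plus strand) encodes ornithine decarboxylase, the rate-limiting enzyme of polyamine synthesis. In KO lungs it held 30.9, 29.8, 25.4 and 21.5 TPM in room air against 55.3, 56.4, 53.2 and 51.9 TPM in hyperoxia. It rose by 1.00 ± 0.11 (adjusted p = 3.35e-05), and within the shared date code by 1.18 (adjusted p = 0.000559). In DBA lungs it held 16.3, 15.6, 15.2 and 16.2 TPM in room air against 26.0, 26.2, 27.6 and 25.4 TPM in hyperoxia, a rise of 0.70 ± 0.09 (adjusted p = 9.44e-05). In set 2 it held 19.0 and 17.4 TPM against 39.2, 36.4 and 33.6 TPM, a rise of 0.96 ± 0.13 (adjusted p = 0.00551; 0.0589 without room-air library 2). No libraries overlapped in these 3 sets. In the first B6 set Odc1 held 25.5 to 27.4 TPM in room air against 27.6, 21.3 and 30.5 TPM in hyperoxia, a difference of -0.03 ± 0.12, with overlap. The 2 B6 sets thus differed for Odc1 and Arg2 in opposite ways. That difference was not tested, because the sets were deposited in separate tables and the first was used in the choice of genes.

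**Figure D2:**
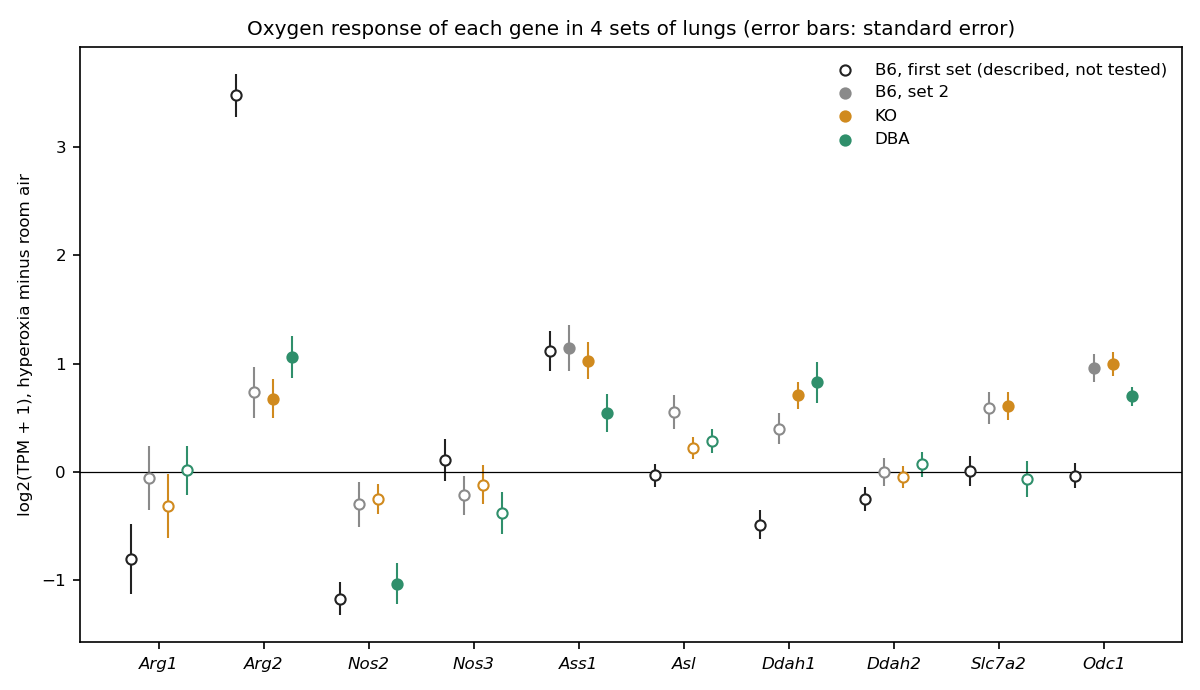
Difference between hyperoxia and room air on the log2(TPM + 1) scale (vertical axis) for each gene in the 4 sets of lungs, with standard errors. Filled points were called at an adjusted p of 0.05, open points were not, and the first B6 set was not tested: Arg2 in that set lies at 3.48, Odc1 lies at 0.70 to 1.00 in the other 3 sets and at -0.03 in the first.

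Ddah1 (chr3:145758692-145894277) and Ddah2 (chr17:35059035-35062099), both on the plus strand, encode the hydrolases that clear asymmetric dimethylarginine, an inhibitor of nitric oxide synthases. In KO lungs Ddah1 held 23.4, 24.8, 16.6 and 18.3 TPM in room air against 33.0, 33.1, 37.6 and 33.2 TPM in hyperoxia. It rose by 0.71 ± 0.13 (adjusted p = 0.00154) without overlap. In DBA lungs it held 16.6, 31.5, 16.3 and 14.8 TPM in room air against 37.4, 40.1, 31.1 and 29.5 TPM in hyperoxia. It rose by 0.83 ± 0.19 (adjusted p = 0.00434) although room-air library 2 reached into the hyperoxic range, and without that library the rise was 1.06. That library had the lowest epithelial and the highest endothelial marker sum of its group, 41453 and 1959 TPM, and the part of cell make-up in its value was not tested.

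In the first B6 set Ddah1 held 24.8, 25.1, 20.8 and 29.2 TPM in room air against 17.5, 15.0 and 20.0 TPM in hyperoxia. Here each hyperoxic library was below each room-air library, the opposite order to KO lungs. In set 2 the order was again upward, with 17.2 and 16.6 TPM against 25.0, 23.8 and 19.4 TPM, but the difference of 0.40 ± 0.14 was not called (adjusted p = 0.152). Ddah2 had the highest TPM of the 10 genes in every lung library, 60.4 to 88.0 TPM in B6, set 2 and KO lungs and 95.1 to 144 TPM in DBA lungs. Its oxygen differences were -0.05 ± 0.10 in KO, 0.07 ± 0.12 in DBA and 0.00 ± 0.13 in set 2, and none was called.

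Slc7a2 (chr8:40862367-40922070, plus strand) encodes CAT2, a cationic amino acid transporter that feeds arginine to both pathways in macrophages and other cells. In KO lungs it held 11.3, 7.85, 10.6 and 8.77 TPM in room air against 17.6, 14.4, 14.0 and 14.5 TPM in hyperoxia. It rose by 0.61 ± 0.13 (adjusted p = 0.00479) without overlap. Set 2 had a difference of similar size, 0.59 ± 0.15, that was not called (adjusted p = 0.0573). In DBA lungs the difference was -0.07 ± 0.17 and in the first B6 set 0.01 ± 0.14, both with overlapping groups. The KO response exceeded the DBA response by 0.67 ± 0.22 (adjusted p = 0.0633), which was not called. For Odc1 that difference was 0.30 ± 0.14 (adjusted p = 0.178), and with the date code as a term it was 0.48 and called (adjusted p = 0.0425).

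Other genes of the pathway came from 3 lists. Among 6 tested genes of arginine transport and the urea cycle, Gatm, which uses arginine to start creatine synthesis, rose in KO lungs from 3.17 to 6.10 TPM (adjusted p = 0.00752) and in DBA lungs from 14.9 to 24.4 TPM (adjusted p = 0.00558). Slc25a15, the mitochondrial ornithine carrier, also rose in both, by 0.38 in KO and 0.33 in DBA. One gene fell in each: Slc7a7, an exporter of arginine, by 0.28 on the log2 scale in KO, and Slc3a2, the shared heavy chain of such transporters, by 0.30 in DBA. The list medians were 0.24 in KO and -0.05 in DBA, and of all genes 19.7% were called in KO and 31.0% in DBA. In set 2 none of 7 tested genes was called.

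Of 16 tested genes that handle ornithine, proline and polyamines, 3 rose in KO lungs and none fell, among them Srm, spermidine synthase, by 0.52 and Sat1, which acetylates polyamines for export or breakdown, by 0.35. In DBA lungs 2 rose and 1 fell: Azin2, an antizyme inhibitor, was among those that rose, by 0.67, while Amd1, which supplies the aminopropyl donor, fell by 0.45. None was called in set 2. Of all genes, 19.7% were called in KO, 31.0% in DBA and 4.94% in set 2. The list medians were 0.11, -0.03 and 0.11, and 13 of the 16 genes were not called in KO or in DBA lungs. Sat1 and the carrier subunit Slc3a2 responded more positively in KO than in DBA, by 0.66 (adjusted p = 0.0232) and 0.58 (adjusted p = 0.0263).

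Of 13 tested genes of nitric oxide cofactor supply and signalling, none rose and 5 fell in KO lungs. The 4 with the greatest falls were Nostrin, a trafficking partner of the endothelial synthase, by 0.60 on the log2 scale, the nitric oxide receptor subunits Gucy1a1 by 0.51 and Gucy1b1 by 0.41, and Cav1, a membrane inhibitor of the synthase, by 0.33. In set 2, Cav1 fell by 0.77 and Nostrin by 0.50. In the same contrasts 4 of 6 endothelial markers fell in KO lungs and 3 of 6 in set 2, beside 9.11% and 1.81% of all genes. The part of these markers in the falls was not tested. In DBA lungs Spr, of tetrahydrobiopterin synthesis, rose by 0.43, while Hsp90aa1 fell by 0.43 and Gch1, the first enzyme of that synthesis, by 0.35. The KO response exceeded the DBA response by 0.71 for Hsp90aa1 (adjusted p = 0.0276) and 0.56 for Gch1 (adjusted p = 0.0467).

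The 8 genes of a glucocorticoid-responsive list, among them Fkbp5, moved with Arg2 in B6 lungs of the first set. Their summed level was 269 to 507 TPM in room air against 798 to 992 TPM in hyperoxia there. It went the other way in set 2, from 633 to 662 TPM down to 362 to 405 TPM, in KO, from 460 to 711 TPM down to 396 to 483 TPM, and in DBA, from 538 to 960 TPM down to 415 to 528 TPM. Only the KO ranges overlapped. Of the 8 genes, 5 fell in KO, 4 in DBA and 2 in set 2, and none rose, beside 9.11%, 12.4% and 1.81% of all genes called lower. A high sum did not always come with high Arg2: room-air DBA library 3 had a sum of 960 TPM and 4.08 TPM of Arg2. The part of these genes in the level of Arg2 was not tested.

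**Figure D3:**
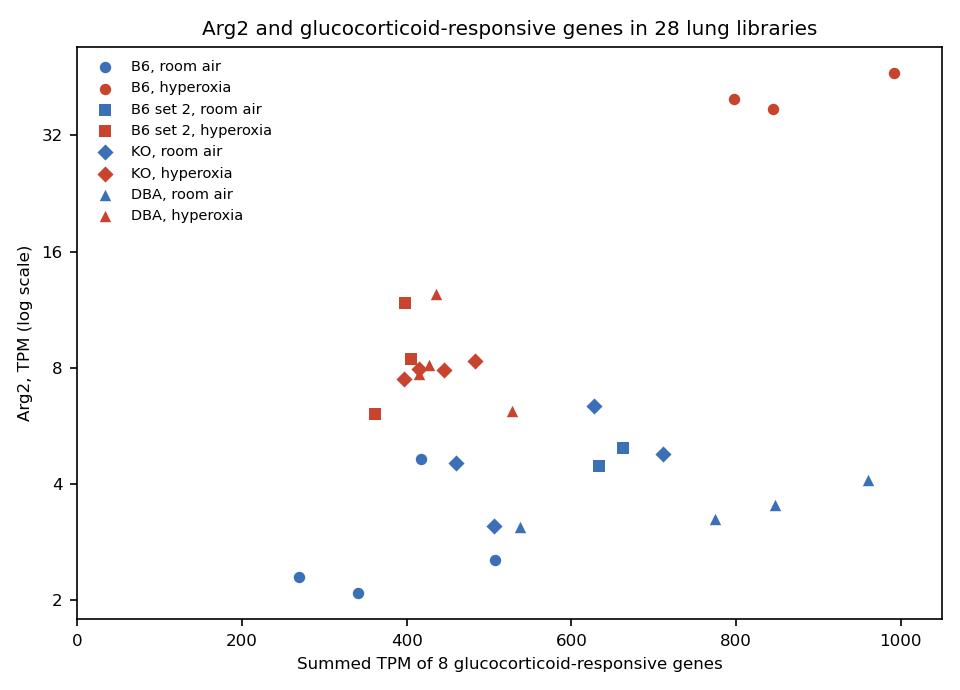
Arg2 in TPM (vertical axis, log scale) against the summed TPM of 8 glucocorticoid-responsive genes (horizontal axis) in 28 lung libraries, with symbols for genotype or set and colours for air. The 3 hyperoxic B6 libraries of the first set stand apart at sums of 798 to 992 TPM and 37.5 to 46.5 TPM of Arg2, while room-air DBA lungs reach a sum of 960 TPM at 4.08 TPM.

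The genes whose log2 level followed Arg2 most closely over the 15 B6 and KO lung libraries were Herpud1 (Pearson r = 0.975), Prdx6 (0.974), Gdpd1 (0.973), Acadl (0.967) and Scarb2 (0.967), among 10581 genes at a mean of at least 5 TPM. Over the 15 B6 and DBA libraries they were Tmem38b (0.962), Nupr1 (0.955), Trp53inp1 (0.953), Tmem243 (0.951) and Gclc (0.950), among 10597 genes. Fkbp5 was at rank 104 in the first (r = 0.905) and rank 24 in the second (r = 0.915). Other genes of the glucocorticoid-responsive list ranked lower. Zbtb16 was at rank 1500 (r = 0.634) and 356 (r = 0.777), and Tsc22d3 at rank 1981 (r = 0.548) and 3823 (r = 0.201). Both sets of points hold the same 7 B6 libraries, of which the 3 hyperoxic ones lie far from the rest. Herpud1 had means of 70.1 and 221 TPM in room-air and hyperoxic B6 lungs and of 89.6 and 111 TPM in KO lungs.

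Between genotypes in room air, none of the 9 genes tested was called between KO and B6 lungs, where limma called 0.0769% of all genes. At an unadjusted p under 0.05 there was also none among these 9. Arg2, for which no test is reported here because its B6 values had chosen it, stood at 3.11 to 6.35 TPM in KO and 2.08 to 4.64 TPM in B6. In hyperoxia, where 37.2% of genes were called, 5 of the 9 genes tested were higher in KO than in B6. Odc1 was higher by 1.02 ± 0.12, Nos2 by 0.96 ± 0.15, Ddah1 by 0.93 ± 0.14, Slc7a2 by 0.50 ± 0.14 and Asl by 0.34 ± 0.11. With the date code as a term, 1442 of 15614 genes were called in place of 5814. Odc1, Nos2 and Ddah1 were still called there, and Slc7a2 (0.68, adjusted p = 0.174) and Asl (0.49, adjusted p = 0.199) were not. Leaving out hyperoxic B6 library 3 ended both of those calls, as did B6 library 1 or KO library 2 for Asl. Arg2 was not tested there, since its B6 values had chosen it: it stood at 7.47 to 8.34 TPM in KO and 37.5 to 46.5 TPM in B6.

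DBA and B6 lungs differed in room air in 8 of the 9 genes tested, Arg2 again being left out, where 56.4% of all genes were called. Nos2 was higher in DBA, at 9.40 to 16.4 TPM against 4.66 to 6.31 TPM, as were Ddah2 by 0.53 ± 0.12, Nos3 by 0.55 ± 0.20 and Ass1 by 0.52 ± 0.17. Lower in DBA were Arg1 (-1.34 ± 0.22), Slc7a2 (-0.84 ± 0.17), Odc1 (-0.73 ± 0.09) and Asl (-0.62 ± 0.11). None of these 8 genes had overlapping groups, and the share of all genes without overlap was not counted there. Macrophage markers also differed, with sums of 703 to 1122 TPM in room-air DBA and 2640 to 5191 TPM in B6 lungs, as did alveolar macrophage markers (18.7 to 32.1 and 185 to 923 TPM) and lymphocyte markers (17.8 to 24.7 and 48.6 to 72.3 TPM). Their part in these differences was not tested. The call for Nos3 was lost with sex as a term (adjusted p = 0.0939) and without B6 library 3 or 4 or DBA library 1 or 2 (adjusted p up to 0.0788). The median of all genes was -0.12 here. In hyperoxia, where 46.1% of genes were called, Nos2 (1.14 ± 0.20), Ddah1 (0.94 ± 0.20) and Ddah2 (0.85 ± 0.13) were higher and Slc7a2 (-0.91 ± 0.18) lower in DBA among the 9 genes tested. Odc1, lower in DBA in room air, stood at 25.4 to 27.6 TPM in hyperoxic DBA lungs and 21.3 to 30.5 TPM in B6, a difference of 0.01 ± 0.10.

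Among other pathway genes, the proline synthesis genes Pycrl (1.51), Aldh18a1 (1.02) and Pycr1 (0.86) and the spermidine synthase gene Srm (1.10) had the greatest differences of their list between hyperoxic KO and B6 lungs, all higher in KO, with 8 of 16 higher and 1 lower. Against the same B6 libraries, Pycrl (1.27), Oaz2 (0.82), Srm (0.78) and Pycr1 (0.77) led in hyperoxic DBA lungs, with 8 of 16 higher and 1 lower. Both comparisons share the 3 hyperoxic B6 libraries. Of all genes, 37.2% were called between hyperoxic KO and B6 lungs and 46.1% between hyperoxic DBA and B6 lungs. In the transport list, Gatm (0.89) and Slc7a7 (0.73) were higher and Slc7a6 (-0.56) lower in KO, and Gatm (2.74) and Slc7a7 (0.90) higher and Slc25a15 (-0.77) and Slc7a6 (-0.59) lower in DBA. In the nitric oxide list, Pde5a (0.74), Hsp90aa1 (0.51), Pts (0.45) and Spr (0.38) led in KO, with 5 of 13 higher and 1 lower. In DBA, Gchfr (2.56) and Spr (1.10) were higher and Prkg1 (-0.66) and Gucy1a1 (-0.57) lower, with 5 higher and 2 lower in all. In room air no gene of the 3 lists was called between KO and B6 lungs, beside 0.0769% of all genes. Between DBA and B6 lungs in room air 56.4% of all genes were called, so counts near that share are not particular to these lists. There, 3 of 6 transport genes were higher and 1 lower, led by Gatm (1.81), Slc25a15 (-0.69), Slc3a2 (0.69) and Slc7a6 (0.34). Gatm had means of 14.9 TPM in DBA and 3.59 TPM in B6. Of 16 ornithine and polyamine genes 6 were higher and 3 lower, led by Aldh18a1 (-1.03), Sat1 (0.81), Prodh (0.70) and Pycr1 (-0.65). Of 13 nitric oxide genes 3 were higher and 5 lower, led by Gchfr (1.43), an inhibitor of tetrahydrobiopterin synthesis, the phosphodiesterase gene Pde5a (-1.22), Gucy1a1 (-1.18) and Nostrin (-0.87).

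In BMDM the pattern of levels was another one. Asl was the highest of the 10 genes in every macrophage library, at 23.6 to 36.5 TPM, followed by Odc1 at 7.44 to 27.6 TPM. The filter removed Arg1 (at most 0.443 TPM), Nos2 (at most 0.937 TPM) and Nos3 (at most 0.212 TPM). Nos2 was at 0.346 to 0.937 TPM in DBA cells, on an estimated 32 to 53 reads, and at 0.017 to 0.171 TPM in B6 and KO cells, on 2 to 23 reads.

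Odc1 rose with oxygen in KO and DBA macrophages, and Ass1 was called in B6 macrophages alone, a pattern that depends on the fit. In KO cells Odc1 was at 14.1 and 10.8 TPM in room air, against 21.6 and 21.9 TPM in hyperoxia, a rise of 0.77 ± 0.14 (adjusted p = 0.00337; 23.3% of genes called). In DBA cells it held 7.56 and 7.44 TPM against 13.6 and 14.8 TPM, a rise of 0.84 ± 0.14 (adjusted p = 0.00289; 18.8% of genes called). In B6 cells it held 21.3 and 18.8 TPM against 27.6 and 21.6 TPM, and the difference of 0.28 ± 0.14 was not called (adjusted p = 0.156). All hyperoxic libraries lay above the room-air libraries of their genotype, an order easily reached with 2 libraries in a group. The share of all genes so ordered was not counted.

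In B6 cells Ass1 was at 1.88 and 0.663 TPM in room air, against 5.93 and 3.46 TPM in hyperoxia, a rise of 1.34 ± 0.26 (adjusted p = 0.00514; 28.5% of genes called). In KO cells Ass1 held 2.37 and 1.59 TPM against 3.47 and 3.24 TPM, and in DBA cells 5.03 and 4.98 TPM against 8.26 and 7.69 TPM. These differences, 0.56 ± 0.26 and 0.58 ± 0.26, were not called (adjusted p = 0.161 and 0.162). No groups overlapped, but this is easily reached with 2 libraries in a group. In fits of each genotype's 4 libraries alone the calls turned round, with adjusted p-values of 0.128 in B6, 0.0379 in KO and 0.0315 in DBA cells. This was not particular to Ass1 in B6 cells, where that fit called 0 of 12320 genes. The fits of KO and DBA cells alone called 4533 and 1606.

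No member's oxygen response was called as different between KO and B6 or between DBA and B6 macrophages, where limma called 1.45% and 0.974% of all genes. At an unadjusted p under 0.05 there were 2 in the first, Ddah1 (-0.96 ± 0.26) and Odc1 (0.49 ± 0.19), and 3 in the second, Ddah1 (-0.62 ± 0.26), Slc7a2 (0.69 ± 0.21) and Odc1 (0.56 ± 0.19). The share of all genes under that unadjusted p was not counted. Ddah1 was at 0 to 0.02 TPM in B6 cells, so its differences restate its falls in KO and DBA cells and are no independent support. Arg2 was low in all macrophages, at 0.391 to 2.33 TPM, and was not called in any of the 3 oxygen contrasts. In B6 cells, with 0.555 and 0.441 TPM in room air against 1.16 and 0.391 TPM in hyperoxia, the groups overlapped and the difference was 0.21 ± 0.19.

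**Figure D4:**
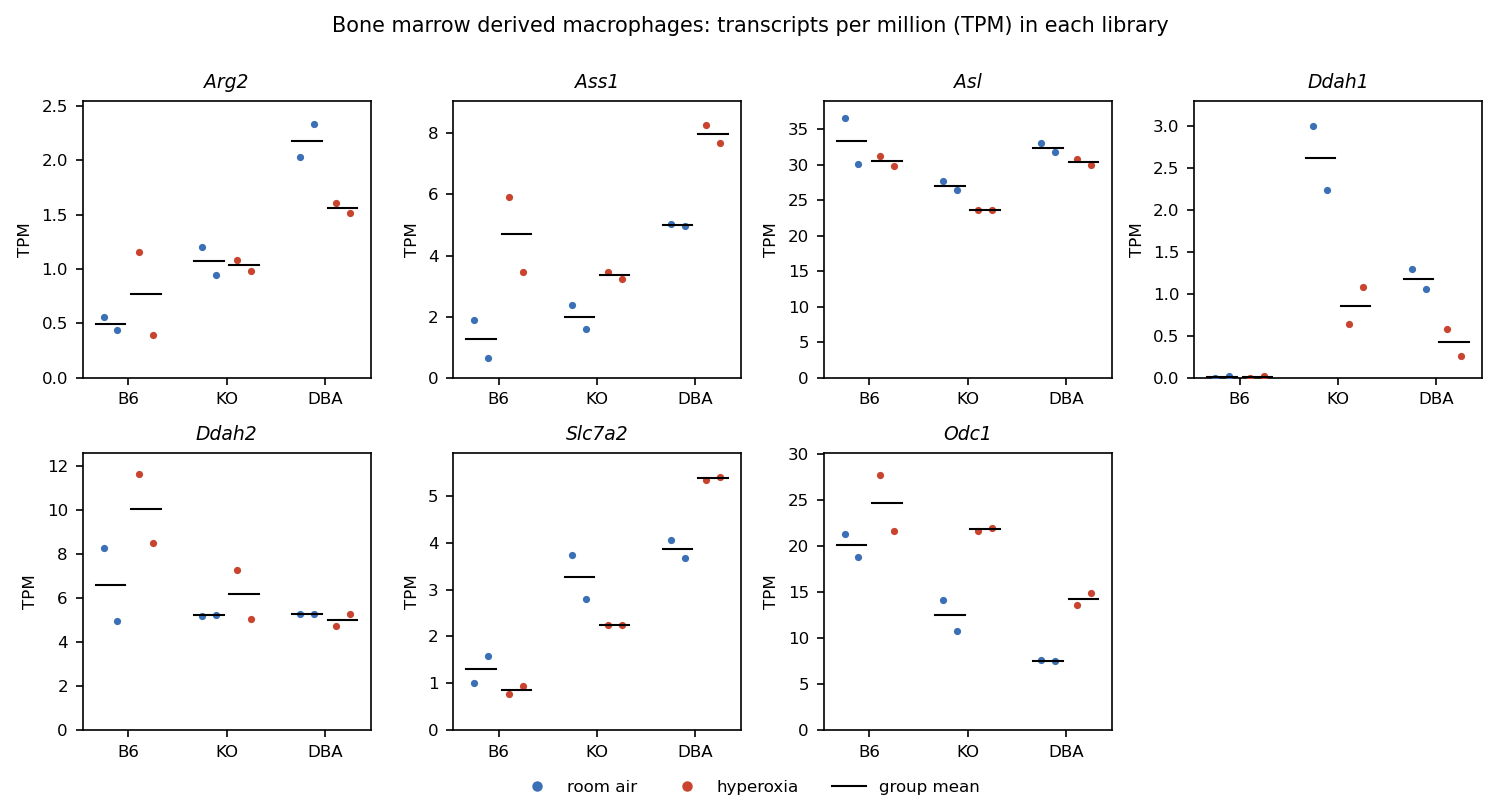
TPM of the 7 tested genes (vertical axes) in each of 12 macrophage libraries by genotype, with room air in blue, hyperoxia in red and bars at the means. Odc1 rises from 7.44 to 14.1 TPM to 13.6 to 21.9 TPM in KO and DBA cells, and Ddah1 is at or near 0 in B6 cells.

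Ddah1 was close to 0 in all 4 B6 macrophage libraries, at 0 to 0.020 TPM and 0 to 2 estimated reads. In KO cells it was at 2.99 and 2.23 TPM in room air, against 0.635 and 1.08 TPM in hyperoxia. DBA cells had 1.29 and 1.05 TPM against 0.582 and 0.265 TPM. It fell by 0.96 ± 0.18 on the log2 scale in KO (adjusted p = 0.00469) and by 0.62 ± 0.18 in DBA (adjusted p = 0.0413). Ddah1 passed the filter mainly through room-air libraries, since only the KO library at 1.08 TPM reached 1 TPM in hyperoxia. A fall was therefore favoured in advance, and these calls are no independent support. The DBA call was lost without any 1 of its 4 libraries (adjusted p up to 0.243). Fibroblast markers moved the same way: all 4 summed to 0.069 to 0.511 TPM in B6 cells, 38.3 to 48.1 TPM in room-air and 11.7 to 16.1 TPM in hyperoxic KO cells, and 35.4 to 40.2 and 13.8 to 16.1 TPM in DBA cells, with Tcf21 at 0 in each group. Smooth muscle markers summed to 0.680 to 1.52 TPM in B6, 50.3 to 62.1 and 19.3 to 21.5 TPM in KO, and 39.7 to 43.8 and 12.8 to 15.2 TPM in DBA cells. Their part in the level of Ddah1 was not tested.

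**Figure D5:**
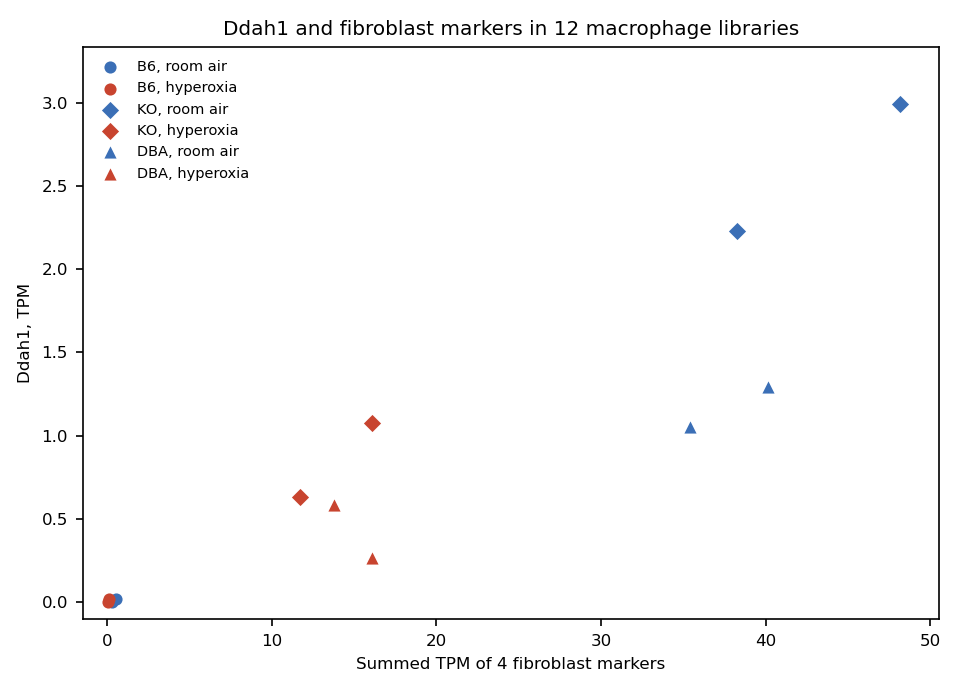
Ddah1 in TPM (vertical axis) against the summed TPM of 4 fibroblast markers (horizontal axis) in 12 macrophage libraries, with symbols for genotype and colours for air. B6 cells lie at or near 0 on both axes, and within KO and DBA cells the hyperoxic libraries are lower on both.

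Macrophages of the genotypes differed in several members, and date and genotype cannot be told apart where B6 is involved. Relative to B6 in room air, where 49.1% of genes were called, KO cells were higher in Ddah1 (1.83 ± 0.18) and Slc7a2 (0.90 ± 0.15) and lower in Odc1 (-0.66 ± 0.14) and Asl (-0.28 ± 0.08). In hyperoxia, with 50.3% called, they were higher in Ddah1 (0.87 ± 0.18) and Slc7a2 (0.81 ± 0.15) and lower in Ddah2 (-0.63 ± 0.22) and Asl (-0.36 ± 0.08). Because Ddah1 was at 0 to 2 reads in B6, its fitted differences depend on the pseudocount and are no fold change. Ddah1 also passed the filter on low values only through KO and DBA libraries. Its calls against B6 were therefore favoured in advance and are no independent support. Slc7a2 held 3.75 and 2.80 TPM in room-air KO cells against 1.01 and 1.59 TPM in B6. The call for Asl in room air was lost without B6 library 1 or without either KO library, and that for Ddah2 without hyperoxic B6 library 1 or KO library 2 (adjusted p up to 0.126 and 0.245).

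Relative to B6 in room air, where 56.8% of genes were called, DBA cells were higher in Ass1 (1.46 ± 0.26), Ddah1 (1.10 ± 0.18), Slc7a2 (1.09 ± 0.15) and Arg2 (1.08 ± 0.19) and lower in Odc1 (-1.31 ± 0.14). In hyperoxia, with 60.6% called, they were higher in Slc7a2 (1.78 ± 0.15), Ass1 (0.69 ± 0.26), Arg2 (0.56 ± 0.19) and Ddah1 (0.49 ± 0.18) and lower in Ddah2 (-0.87 ± 0.22) and Odc1 (-0.74 ± 0.14). The medians of all genes were themselves off 0, at 0.14 and 0.19 for KO and 0.19 and 0.26 for DBA in room air and hyperoxia. With quantile normalization those medians fell to within 0.01 of 0, and Arg2 (0.25), Ass1 (0.32) and Ddah1 (0.29) were no longer called in hyperoxic DBA cells. Arg2 was at 2.03 and 2.33 TPM in room-air DBA cells against 0.555 and 0.441 TPM in B6 cells. Arg2 and Ddah1 reached 1 TPM in too few B6 libraries to pass the filter there, and were kept through KO and DBA libraries. The calls of these genes against B6 were therefore favoured in advance and are no independent support. Leaving out hyperoxic B6 library 2 or either DBA library ended the hyperoxia calls for Arg2 and Ass1, either B6 library or DBA library 1 that for Ddah1, and B6 library 1 that for Ddah2.

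KO and DBA macrophages carry the same date code, and this comparison was added after the data were seen. In room air, where 25.1% of genes were called, KO cells were higher in Ddah1 (0.73 ± 0.18) and Odc1 (0.65 ± 0.14) and lower in Ass1 (-1.02 ± 0.26) and Arg2 (-0.62 ± 0.19). In hyperoxia, with 21.7% called, they were higher in Odc1 (0.58 ± 0.14) and lower in Ass1 (-1.04 ± 0.26), Slc7a2 (-0.97 ± 0.15) and Asl (-0.35 ± 0.08). Slc7a2 held 2.25 and 2.25 TPM in hyperoxic KO cells and 5.35 and 5.41 TPM in DBA cells, and its call was kept without any 1 of the 4 libraries. Each of the other 7 calls was lost without at least 1 of its 4 libraries.

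Other arginine genes came from the same 3 lists. In the transport list of 6 tested genes, 2 rose and 2 fell in each genotype, beside 28.5% of all genes called in B6, 23.3% in KO and 18.8% in DBA cells. Slc7a1, the CAT1 arginine importer, rose by 0.60 in B6, 1.20 in KO and 0.85 in DBA cells, and Slc3a2 by 0.76, 0.48 and 0.29. Gatm (-0.95, -0.74 and -1.13) and Slc7a7 (-0.33, -0.47 and -0.48) fell in all 3. Of 15 tested ornithine and polyamine genes, Azin1, which shields ornithine decarboxylase from antizyme, rose in all 3, by 0.62, 1.08 and 0.90. Those that fell were Pycrl (-0.53), Amd1 (-0.43) and Oaz2 (-0.34) in B6, Smox (-0.52) in KO and Azin2 (-0.95) in DBA cells. Of 10 tested nitric oxide genes, Pts, of tetrahydrobiopterin synthesis, fell by 0.68 in B6 and 0.64 in KO cells. Nostrin (-0.39) and Hsp90aa1 (-0.22) also fell in B6, Gch1 (0.30) and Hsp90aa1 (0.23) rose in KO, and none was called in DBA cells.

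The study also mapped p53, the stress-activated transcription factor, by chromatin immunoprecipitation in lungs and macrophages, with 1 deposited peak list for each group on pooled libraries. The series' title concerns a link between TREM2 and p53. No lung list, of 134 to 255 peaks, had a peak centre within 50 kb of the start of any of the 10 genes, and 0.778% to 1.50% of all genes had one. In B6 macrophages 3 genes had a peak within 10 kb. Arg1 had one in hyperoxia, at chr10:24928264-24928464 (mm10), 894 bases upstream of its start, with the authors' score of 15 and rank 1137 of 3500 peaks. In that list 4.74% of all genes had a peak within 10 kb. In room air Asl had one at chr5:130023797-130023997, inside the gene 484 bases downstream of its start (score 19, rank 482), and Ddah2 one at chr17:35051736-35051936, 7199 bases upstream (score 27, rank 164 of 4107), where 6.31% of genes had one. The nearest to Odc1 was 12703 bases upstream of its start in room air and the nearest to Ass1 15782 bases upstream in hyperoxia, and Arg2 had none within 50 kb. The KO macrophage lists, 1320 peaks in hyperoxia, had none within 50 kb of a member, where 8.41% of all genes in hyperoxia and 6.60% in room air had one. These KO samples are titled as knockout and labelled with the B6 genotype, and they were grouped by title.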

How the data were processed

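Whole-lung RNA was sequenced in 28 libraries and BMDM RNA in 12. The authors deposited TPM values per transcript with its length. STAR, HOMER, Bowtie2 and the build mm10 are named in the submitters' processing notes, without versions, and no source used here gives the steps or settings in more detail. The 7 B6 columns of the KO and DBA lung tables are identical for the 24396 shared transcripts. In each library at least 99.957% of the low values examined, those on few reads, were whole multiples of 1 read (tolerance 0.15 reads). The size of 1 read was fitted to such low values and gave the estimated depths.

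The members, gene lists and tests were chosen with earlier results of these data known. All columns of the tables were mapped to samples or groups through their names. TPM was taken to log2(TPM + 1). A gene was kept if it reached 1 TPM in a number of libraries equal to the smallest group's size. Kept genes were fitted per table with limma 3.58.1 in R 4.3.3, all groups together, with a mean-variance trend and Benjamini-Hochberg adjustment over all genes, with a call at 0.05. In all, 19 comparisons were tested and 1 was described. The fit was tested on simulated data. A pseudocount of 1 understates the fold of low genes.

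Named genes were all 10 members, up to 4 called genes with the greatest absolute difference from each of 3 pathway lists in each comparison, and the 5 genes most correlated with Arg2 among those at a mean of at least 5 TPM. Markers came from 10 lists. Some results for single genes of the lists are not reported here.

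Alternatives were quantile normalization, a pseudocount of 0.1, no filter, fits of the compared groups alone, each library left out, date or sex as a term, one date code alone, and a replicate block. Peaks were called by the authors with HOMER on combined libraries (200 bases, 4-fold over input and surroundings, false discovery rate 0.001), per the file headers. The peak score is the authors' and serves only to rank peaks within a list.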

Additional observations from a re-analysis of the deposited data

Results flagged for a closer look

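In groups of 4 libraries, a library was noted when its gap to the nearest other was above Dixon's critical share of the group's range. Chance alone gives about 1 in 20 such groups, and 50 groups were checked. Ddah1 in hyperoxic KO lungs stood at 37.579 TPM in library 3 and 32.972 to 33.177 TPM in the others. Slc7a2 in the same group stood at 17.552 TPM in library 1 and 14.045 to 14.466 TPM in the others. Odc1 in room-air B6 lungs was at 25.535 TPM in library 2 and 27.218 to 27.36 TPM in the others. Ddah2 in hyperoxic DBA lungs was at 109.002 TPM in library 1 and 125.879 to 128.147 TPM in the others.

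Ddah1 in room-air DBA lungs was at 31.492 TPM in library 2 and 14.797 to 16.587 TPM in the other 3. With that library left out, Ddah1 was lower in room-air DBA than in room-air B6 lungs (-0.61, adjusted p = 0.00111), while with it the difference of -0.38 was not called.

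Differences in response to oxygen were noted here if a test called them or if all libraries of 2 sets moved in opposite directions. For Nos2 the tested difference between the KO and DBA responses was 0.7843. Ddah1 was higher in every hyperoxic KO library and lower in every hyperoxic B6 library of the first set, a difference in response of 1.1953, and set 2 differed from the first B6 set in the same way by 0.8865. Neither of these Ddah1 differences was tested, because the first B6 set served in the choice of the genes.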

How the results depend on the processing

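Of 62 called member results, 681 values under alternatives were computed. Of these 572 kept their direction and call, 109 lost the call and 0 reversed. With quantile normalization, set 2 had 4 called members in place of 2, the KO and DBA responses differed in 2 in place of 1, B6 BMDM had 2 in place of 1 and DBA BMDM 1 in place of 2. With a pseudocount of 0.1 these counts were 0 for the KO and DBA responses, 1 for DBA BMDM and 2 in place of 4 for KO against DBA BMDM in room air. Without the filter, set 2 had 1 and the KO and DBA responses 0. With only the compared groups, B6 BMDM had 0 and KO BMDM 4 in place of 2. Over all 12320 genes the B6 fit then called 0 and the KO fit 4533, beside 3515 and 2868 in the main fits. Among DBA lungs of the earlier date code alone, 0 of 5 calls were made, with Odc1 at 0.67 and Arg2 at 1.16. That fit called only 124 of 15601 genes in all, beside 4841 of 15623 in the main fit. With date as a term, KO against B6 in hyperoxia had 3 in place of 5, while calls over all genes were 1442 in place of 5814 of 15614. At 50 kb, 6 members had a p53 peak in at least 1 list, and at 10 kb 3. Among tested results called under at least 1 setting, the only uncalled value that reversed here was Arg2 in hyperoxic KO against B6 BMDM. It went from 0.23 to -0.0701 with quantile normalization. In the untested first B6 set, date as a term took Nos3 from 0.11 to -0.04 and Slc7a2 from 0.01 to -0.09. The causes were not tested.

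With each library left out, counts of called members ranged in lungs from 4 to 6 (KO), 4 to 5 (DBA), 0 to 2 (set 2), 0 to 2 (KO against DBA response), 0 to 0 and 4 to 6 (KO against B6, room air and hyperoxia) and 7 to 8 and 4 to 5 (DBA against B6). In BMDM they ranged from 1 to 2 (B6), 2 to 2 (KO), 1 to 1 (DBA), 3 to 4 in both air conditions (KO against B6), 5 to 6 and 3 to 4 (DBA against B6), 1 to 2 in both (KO against DBA) and 0 to 0 for both differences in response. A lone BMDM library, or a lone room-air library of set 2, was assumed to vary like the other libraries of its fit. Calls over all genes moved too, from 2114 to 2980 of 15614 in KO lungs and 3620 to 5415 of 15623 in DBA lungs. They were 568 to 2459 of 15622 for the KO against DBA response. In set 2 they were 350 to 705 of 14636 with a hyperoxic library left out. The main fits called 3079, 4841, 1131 and 723 genes. Among tested results called under at least 1 setting, uncalled values changed sign within ranges of -0.52 to 0.0282 (Nos3, hyperoxic KO against B6 lung), -0.25 to 0.0218 (Asl, B6 BMDM oxygen), -0.0856 to 0.55 (Arg2, hyperoxic KO against B6 BMDM), -0.17 to 0.10 and -0.0389 to 0.0285 (Asl, DBA against B6 BMDM in room air and hyperoxia) and -0.56 to 0.0791 (Ddah2, DBA against B6 BMDM in room air). In the untested first B6 set, Nos3 (-0.15 to 0.40), Asl (-0.14 to 0.04), Slc7a2 (-0.11 to 0.16) and Odc1 (-0.14 to 0.11) also crossed 0.

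With a replicate block, called members numbered 2 in set 2, 2 in B6, 3 in KO and 2 in DBA BMDM, 1 and 0 for the KO and DBA differences in response from B6, and 3 and 4 for KO against DBA. The block was the replicate number in KO and DBA BMDM and the sex mark (MF or F) in B6 BMDM, whose columns all carry the same number. Libraries of a block correlated in their deviations by 0.38 in B6, -0.05 in KO and 0.08 in DBA. The block added the calls for Ass1 in KO (adjusted p = 0.0114) and DBA (adjusted p = 0.0119), for Ddah2 in B6 (adjusted p = 0.0152) and for Ass1 in the KO against B6 response (-0.78, adjusted p = 0.0492). It ended those for Ddah1 in DBA (adjusted p = 0.0524) and Arg2 in KO against DBA in room air (adjusted p = 0.0584). No paired analysis was possible for the first lung tables because numbers restart within each date code, nor for BMDM levels against B6, whose columns carry no distinguishing numbers.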

Other observations

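Macrophages of the 3 genotypes differed in other genes that handle arginine. Gatm, which starts creatine synthesis from arginine, had a mean of 142 TPM in room-air DBA cells, 36.8 TPM in KO cells and 24.5 TPM in B6 cells (DBA against B6 2.49, adjusted p = 1.06e-08; KO against B6 0.57, adjusted p = 0.000178). Slc7a7, which exports cationic amino acids, followed with 56.0, 26.6 and 11.3 TPM (2.21, adjusted p = 1.03e-08; 1.17, adjusted p = 9.55e-07). Its partner chain Slc3a2 had 279, 151 and 106 TPM (1.39, adjusted p = 1.03e-07; 0.50, adjusted p = 9.44e-05). KO and DBA cells, which share a date code, also differed in Gatm (-1.92), Slc7a7 (-1.04) and Slc3a2 (-0.89). Of the 6 tested genes of this list, 4 were higher and none lower in DBA than in B6 cells, with a median of 0.95, beside 56.8% of all genes called and a median of 0.19. In KO against B6 cells 3 were higher and none lower, beside 49.1% of all genes called. The oxygen response of Slc3a2 differed between DBA and B6 cells by -0.47 (adjusted p = 0.0385).

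Among polyamine genes in the same cells, Azin2 was at 4.21 TPM in DBA, 3.30 TPM in KO and 1.09 TPM in B6 cells in room air, and Paox, which oxidizes acetylated polyamines, at 7.71, 9.41 and 3.87 TPM. Sms, spermine synthase, was lower in DBA (6.58 TPM) and KO (4.83 TPM) than in B6 (10.7 TPM). All 6 of these differences from B6 were called, with adjusted p-values up to 0.00275. Of the 15 tested genes of that list, 4 were higher and 6 lower in KO and 4 higher and 4 lower in DBA cells, and of 10 nitric oxide genes 2 were higher and 4 lower in KO and 3 higher and 3 lower in DBA. Of all genes, 49.1% were called in KO and 56.8% in DBA cells, so counts near those shares are not particular to these lists. Date and genotype cannot be told apart in the comparisons with B6 cells.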
